A study of Homo sapiens with 9 samples.

Results

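Lysosomal genes were examined in cells that had been loaded with palmitic acid and then given curcumin, with or without copper. The set comprised 39 genes for lysosomal proteases, glycosidases and sulfatases, lipid-handling proteins, membrane proteins, subunits of the proton pump, and the regulators TFEB and TFE3. The genes were taken by symbol from a table of 62703 genes, and all 39 were found there. Of these, 38 averaged at least 1 TPM over the 9 libraries and were tested. TPM is a length-scaled unit of transcript abundance that sets every library to the same total. CTSH, which encodes cathepsin H, a lysosomal aminopeptidase, had a mean of 0.276 TPM and was not tested.

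RNA was sequenced in 3 libraries from each of 3 treatments. The first group had palmitic acid, a saturated fatty acid, at 750 µM over 24 h, followed by 20 µM curcumin, a polyphenol of turmeric, together with 5 µM CuCl2 for 12 h. The second had the same palmitic acid and then 20 µM curcumin for 12 h. The remaining group had only the 24 h with 750 µM palmitic acid. Cells free of palmitic acid, a vehicle or 12 h more for that last group are not among the labels, so any effect of those 12 h cannot be told apart from that of the compounds. The cells are labelled HepG2, a human liver cancer line. Markers of hepatocytes were nearly absent: 14 of 16 averaged less than 1 TPM and 6 were listed at 0 in every library, among them ALB, the serum albumin gene. Of 6 epithelial markers, the keratin genes KRT7, KRT8 and KRT18 averaged 1216, 892 and 862 TPM. The others, EPCAM, CDH1 and the keratin gene KRT19, averaged 0.00444, 0.4 and 0.00556 TPM. The cells are therefore called by their label only. Leukocyte and macrophage markers, which matter for lysosomal genes, summed to 2.1 to 3.2 TPM with curcumin and CuCl2, 2.44 to 3.20 TPM with curcumin and 2.55 to 3.45 TPM with palmitic acid alone over 10 genes. Of these, 8 were under 1 TPM and 5 were listed at 0.

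The lysosome is an acidic organelle that breaks down proteins, glycans, lipids and nucleic acids delivered by endocytosis and autophagy. TFEB and TFE3 are related transcription factors that bind a sequence element shared by many lysosomal genes, known as the CLEAR element, whose core is the E-box CACGTG. The kinase complex mTORC1 holds them in the cytoplasm by phosphorylation when nutrients are plentiful, so their activity is known to depend largely on where the protein resides. In liver cells the lysosome also releases fatty acids from stored lipid, a process called lipophagy.

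GLA, CTSL and CTSD rose after curcumin, 3 of the 38 genes tested. The same genes rose after curcumin with CuCl2. GLA was 1.48-fold higher with curcumin, CTSL 1.44-fold and CTSD 1.32-fold, as ratios of mean TPM. With curcumin and CuCl2 the ratios were 1.45, 1.38 and 1.31. No member fell in either comparison, and none changed between the 2 curcumin groups. Differences were tested with limma on log2(TPM + 1), adjusted by the Benjamini-Hochberg method over 13443 genes at 0.05, and "rose" and "fell" are used for genes past that threshold. The 3 genes called were 7.89% of the members tested in each comparison, against 1.44% of all genes with curcumin and CuCl2 and 1.96% with curcumin. Among all genes 0.543% were called higher and 0.900% lower with curcumin and CuCl2, and 0.759% higher and 1.21% lower with curcumin. The contrast with all genes moved with single libraries. With 1 library left out, 2 to 3 members were called in each comparison. Of the 13443 genes, 44 to 555 were then called with curcumin and CuCl2, beside 194 in the main fit. With curcumin 54 to 634 were called, beside 264. Both highest counts came without replicate 3 of palmitic acid alone, where the contrast was narrower. Both comparisons share the libraries with palmitic acid alone, so they are not independent of each other. In bulk RNA, fewer cells of a type and less RNA per cell cannot be told apart.

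The promoters of the genes that rose are shown with that of MCOLN1, whose level did not pass the test in any comparison and which holds the full CLEAR sequence. Each line gives the 250 bases before the transcription start, 5′ to 3′ on the gene's strand, from RefSeq on GRCh38.p14. Capitals mark matches on either strand to the E-box CACGTG, to the CLEAR palindrome, which is the E-box with GT before it and AC after it, or to TGACNNNGC, the core of the antioxidant response element bound by NRF2. The windows are chrX:101407926-101408175 on the minus strand for GLA, chr9:87725869-87726118 on the plus strand for CTSL, chr11:1763928-1764177 on the minus strand for CTSD and chr19:7522374-7522623 on the plus strand for MCOLN1. In GENCODE 29 the genes CTSL and CTSD start further upstream and span these windows, and GLA reaches into its own.

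GLA: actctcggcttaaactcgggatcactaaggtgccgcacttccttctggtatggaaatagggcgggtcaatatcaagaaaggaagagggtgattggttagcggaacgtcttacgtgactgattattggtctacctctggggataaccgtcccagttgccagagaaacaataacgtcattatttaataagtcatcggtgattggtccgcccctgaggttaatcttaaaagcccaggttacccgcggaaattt

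CTSL: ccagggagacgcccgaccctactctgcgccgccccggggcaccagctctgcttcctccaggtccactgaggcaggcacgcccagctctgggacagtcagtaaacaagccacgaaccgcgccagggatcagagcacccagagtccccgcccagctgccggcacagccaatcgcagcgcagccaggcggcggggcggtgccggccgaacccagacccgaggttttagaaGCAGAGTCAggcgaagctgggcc

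CTSD: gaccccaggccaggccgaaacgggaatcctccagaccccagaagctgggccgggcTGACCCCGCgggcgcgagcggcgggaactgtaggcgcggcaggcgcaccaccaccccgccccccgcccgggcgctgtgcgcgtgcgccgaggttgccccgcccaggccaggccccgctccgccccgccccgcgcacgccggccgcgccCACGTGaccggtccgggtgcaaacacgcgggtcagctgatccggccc

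MCOLN1: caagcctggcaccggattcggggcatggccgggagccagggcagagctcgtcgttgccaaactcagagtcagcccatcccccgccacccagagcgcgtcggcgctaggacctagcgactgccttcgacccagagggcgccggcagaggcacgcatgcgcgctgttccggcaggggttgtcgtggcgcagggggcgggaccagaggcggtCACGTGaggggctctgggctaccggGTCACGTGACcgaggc

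The CTSD window held an E-box whose first base lay 47 bases before the start, and TGACCCCGC at 195 bases. The CTSL window held GCAGAGTCA, the core read on the other strand, at 23 bases. No match to the 3 motifs lay in the GLA window. In the MCOLN1 window an E-box lay at 41 bases and the CLEAR sequence at 16 bases. Over the 27 members found in the promoter table, 9 had an E-box before at least 1 of their listed starts, against 7.73% of 27305 genes counted the same way. The CLEAR sequence was found in 2 of the 27, GAA and MCOLN1, against 0.374% of all genes, and the antioxidant core in 11 of the 27, against 13.2%. A match describes letters in this window and does not show that a factor was bound. Of the 9 genes with an E-box CTSD rose, and of the 11 with the antioxidant core CTSL and CTSD rose. The others in these lists did not pass the test in any comparison, and neither did GAA and MCOLN1 with the CLEAR sequence. A relation between motif and change was not tested.

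**Figure D1:**
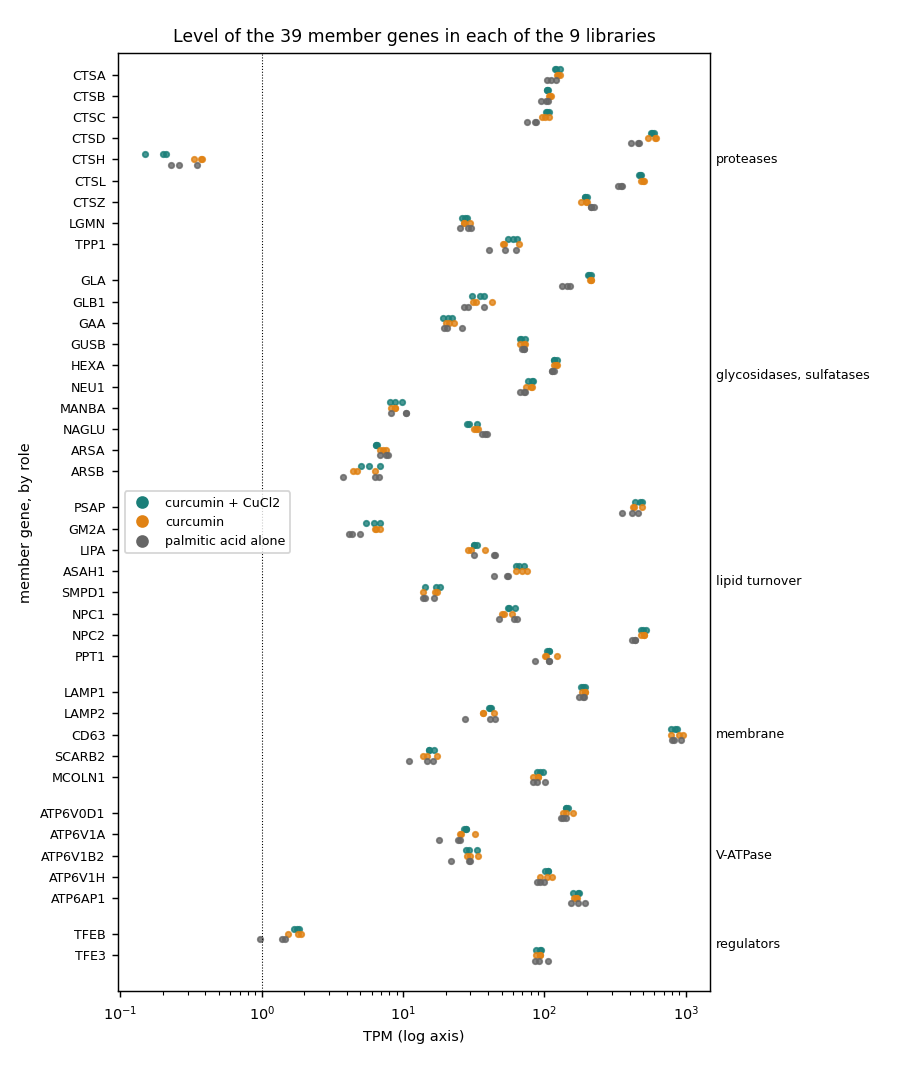
TPM (log axis) of each of the 39 genes in every library, grouped by role, with 1 point per library coloured by treatment; the dotted line is at 1 TPM. CD63 is highest at a mean of 853 TPM, CTSH lies below the line at 0.276 TPM, and the points of GLA, CTSL and CTSD with palmitic acid alone lie left of the curcumin points.

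Levels differed widely between genes. Of the 39 genes, 15 averaged 100 TPM or more, 18 lay between 10 and 100 TPM, 5 between 1 and 10 TPM, and CTSH alone was lower. CD63, a tetraspanin of late endosomes and lysosomes, was highest at 853 TPM, followed by CTSD at 538 TPM, NPC2 at 477 TPM, PSAP at 442 TPM and CTSL at 438 TPM. These are means over the 9 libraries, on the length-scaled TPM scale. Together the 39 genes summed to 5245, 5213 and 5292 TPM with curcumin and CuCl2, 5411, 5275 and 5215 TPM with curcumin, and 4883, 4703 and 4600 TPM with palmitic acid alone. The sums of both curcumin groups lay above every library with palmitic acid alone. The widest gap between groups was in the sum of the 9 proteases, with 1649 to 1697 TPM, 1655 to 1732 TPM and 1354 to 1444 TPM in the same order of treatments. In that sum CTSD averaged 583, 587 and 445 TPM and CTSL 475, 496 and 344 TPM, while CTSZ averaged 195, 194 and 217 TPM. The sums of the 5 membrane genes overlapped, at 1131 to 1198 TPM with curcumin and CuCl2, 1127 to 1289 TPM with curcumin and 1148 to 1225 TPM with palmitic acid alone.

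Among the proteases, CTSL and CTSD rose. CTSL encodes cathepsin L, a cysteine endopeptidase, and lies at chr9:87725519-87731393 on the plus strand in GENCODE 29 (GRCh38). Its level was 485, 464 and 474 TPM with curcumin and CuCl2, 506, 497 and 485 TPM with curcumin, and 346, 354 and 333 TPM with palmitic acid alone. Every library of both curcumin groups lay above every library with palmitic acid alone, by more than the spread within any group. The log2 fold change was 0.46 (SE 0.05, adjusted p = 0.00491, limma) for curcumin with CuCl2 and 0.53 (SE 0.05, adjusted p = 0.00207, limma) for curcumin. CTSL pseudogenes could share its reads: of 9 such entries 8 were listed at 0 in all libraries, and the highest value in any was 0.07 TPM. The close paralogue CTSV, cathepsin V, averaged 3.27 TPM.

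CTSD encodes cathepsin D, the main aspartic protease of the lysosome, and lies at chr11:1752752-1764573 on the minus strand. It was measured at 578, 572 and 600 TPM with curcumin and CuCl2, 613, 538 and 608 TPM with curcumin, and 466, 410 and 460 TPM with palmitic acid alone. No library with palmitic acid alone reached the lowest curcumin library, although replicate 2 was the lowest of its group in all 3 groups. Its log2 fold change was 0.39 (SE 0.07, adjusted p = 0.035, limma) for curcumin with CuCl2 and 0.40 (SE 0.07, adjusted p = 0.0295, limma) for curcumin. The call of CTSD was less firm than those of CTSL and GLA, which passed under all 18 alternative settings in both comparisons. For curcumin, it was lost without replicate 1 or 3 of curcumin (limma adjusted p of 0.116 and 0.138), without any 1 of the libraries with curcumin and CuCl2 (0.0638 to 0.0693), and when replicate 2 with palmitic acid alone was left out (0.0968). For curcumin with CuCl2, it was lost without replicate 1, 2 or 3 of that group (limma adjusted p of 0.15, 0.128 and 0.167), without replicate 1 or 3 of curcumin (0.0589 and 0.0674), and when replicate 1 or 2 with palmitic acid alone was left out (0.0527 and 0.114). Its log2 fold change stayed between 0.33 and 0.46 over all alternatives of both comparisons. A same-strand gene with no symbol in the table, AC068580.4 in GENCODE 29, overlaps CTSD and had 44.46 to 65.24 TPM, so how reads were divided between them is uncertain.

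The other proteases did not pass the test. CTSC encodes cathepsin C, a dipeptidyl peptidase that activates other proteases. It had 107, 103 and 104 TPM with curcumin and CuCl2, 101, 108 and 96.8 TPM with curcumin, and 86.2, 87.9 and 75.6 TPM with palmitic acid alone. Neither curcumin group overlapped palmitic acid alone, yet the limma adjusted p was 0.0737 for curcumin with CuCl2 and 0.0986 for curcumin, at log2 fold changes of 0.33 and 0.29. CTSZ, a carboxypeptidase gene, was the protease with the most negative difference, at log2 fold changes of -0.15 and -0.16 in the same order (limma adjusted p of 0.279 and 0.244), and its 3 libraries with palmitic acid alone lay above all 6 others. CTSA, whose product also protects beta-galactosidase and sialidase, CTSB, LGMN and TPP1 had log2 fold changes between -0.04 and 0.20 in these comparisons. CTSB encodes an abundant cysteine protease, LGMN an asparaginyl endopeptidase and TPP1 a tripeptidyl peptidase. The untested CTSH had 0.21, 0.15 and 0.20 TPM with curcumin and CuCl2, 0.37, 0.38 and 0.33 TPM with curcumin, and 0.23, 0.35 and 0.26 TPM with palmitic acid alone.

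**Figure D2:**
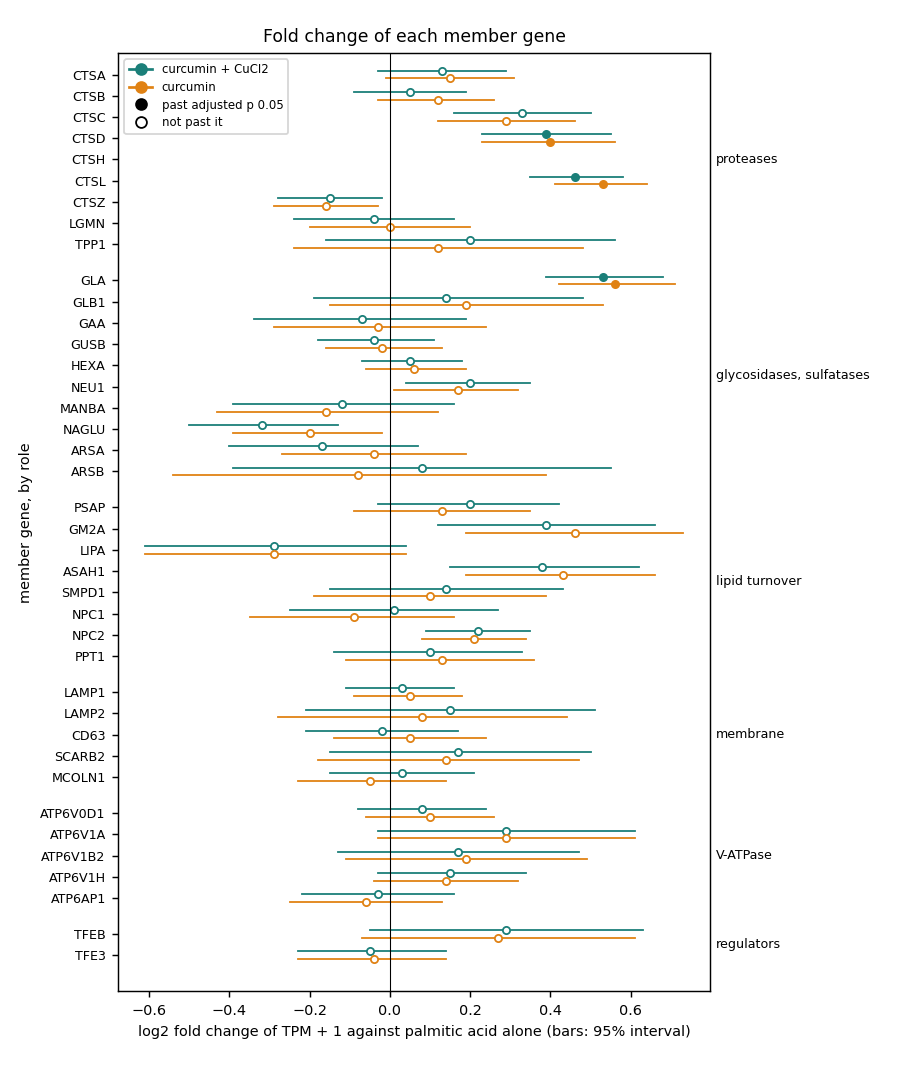
Log2 fold change of TPM + 1 against palmitic acid alone for 38 genes by role, curcumin with CuCl2 above curcumin in each row, with 95% intervals; filled points are past an adjusted p of 0.05 (limma), and CTSH was not tested. Filled points are those of CTSD, CTSL and GLA, at log2 fold changes of 0.39 to 0.56.

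Of the 10 glycosidase and sulfatase genes, GLA rose and the others did not pass the test. GLA encodes alpha-galactosidase A, which removes terminal galactose from globotriaosylceramide and is deficient in Fabry disease, and lies at chrX:101397803-101408012 on the minus strand. Its level was 213, 203 and 206 TPM with curcumin and CuCl2, 214, 212 and 210 TPM with curcumin, and 153, 144 and 133 TPM with palmitic acid alone. The lowest curcumin library stood far above the highest library with palmitic acid alone. The log2 fold change was 0.53 (SE 0.06, adjusted p = 0.00566, limma) for curcumin with CuCl2 and 0.56 (SE 0.06, adjusted p = 0.00351, limma) for curcumin. RPL36A-HNRNPH2 overlaps GLA on the opposite strand. The libraries were made with a stranded kit, but the sources used here do not say whether counting used strand. That gene had 261, 248 and 258 TPM with curcumin and CuCl2, 207, 151 and 155 TPM with curcumin, and 312, 187 and 274 TPM with palmitic acid alone. Its log2 fold change was 0.02 (95% interval -0.38 to 0.42, limma adjusted p = 0.986) for curcumin with CuCl2 and -0.57 (-0.97 to -0.17, adjusted p = 0.169) for curcumin, where that of GLA was positive. Between the curcumin groups it was 0.59 (0.19 to 0.99, limma adjusted p = 1) for curcumin with CuCl2 over curcumin, where GLA had -0.03. Whether reads of RPL36A-HNRNPH2 entered the values of GLA was not tested.

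NAGLU encodes the N-acetylglucosaminidase of heparan sulfate breakdown. It had 29.1, 33.2 and 28.5 TPM with curcumin and CuCl2, 34.0, 31.6 and 32.7 TPM with curcumin, and 39.03, 36.4 and 38.3 TPM with palmitic acid alone. The 3 libraries with palmitic acid alone were the highest of the 9. Its log2 fold change was -0.32 (95% interval -0.50 to -0.13, limma adjusted p = 0.102) for curcumin with CuCl2 and -0.20 (-0.39 to -0.02, adjusted p = 0.298) for curcumin. NEU1, the lysosomal sialidase gene, had log2 fold changes of 0.20 and 0.17 in the same order (limma adjusted p of 0.231 and 0.316), with both curcumin groups above every library with palmitic acid alone. GLB1 encodes beta-galactosidase, GAA the acid alpha-glucosidase that digests glycogen, and GUSB beta-glucuronidase. HEXA encodes the alpha subunit of beta-hexosaminidase, MANBA beta-mannosidase, and ARSA the sulfatase of sulfatide. These 6 genes had log2 fold changes between -0.17 and 0.19 in both comparisons with palmitic acid alone. ARSB, the sulfatase gene of dermatan sulfate, had 5.02, 5.71 and 6.85 TPM with curcumin and CuCl2, 4.43, 6.32 and 4.76 TPM with curcumin, and 6.72, 6.31 and 3.75 TPM with palmitic acid alone. Its groups overlapped, its log2 fold changes were 0.08 and -0.08, and it had the widest relative spread of the tested members in each group.

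None of the 8 lipid-handling genes passed the test. ASAH1 encodes acid ceramidase, which splits ceramide into sphingosine and a fatty acid. It had 71.4, 66.3 and 63.2 TPM with curcumin and CuCl2, 69.2, 75.5 and 62.7 TPM with curcumin, and 54.9, 54.5 and 44.3 TPM with palmitic acid alone. Neither curcumin group overlapped palmitic acid alone, and the log2 fold changes were 0.38 and 0.43 (limma adjusted p of 0.121 and 0.0804). GM2A encodes the activator that presents ganglioside GM2 to hexosaminidase. Its level was 5.48, 6.86 and 6.26 TPM with curcumin and CuCl2, 6.34, 6.85 and 6.39 TPM with curcumin, and 4.34, 4.93 and 4.17 TPM with palmitic acid alone. All 6 curcumin libraries were higher, at log2 fold changes of 0.39 and 0.46 (SE 0.12 in both, limma adjusted p of 0.169 and 0.103). NPC2, the soluble cholesterol carrier of the lysosome, also showed no overlap with palmitic acid alone, with log2 fold changes of 0.22 and 0.21 (limma adjusted p of 0.0999 and 0.108).

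LIPA encodes lysosomal acid lipase, which releases fatty acids and cholesterol from stored lipid and so acts in lipophagy. It had 31.9, 33.1 and 31.8 TPM with curcumin and CuCl2, 29.01, 38.2 and 30.5 TPM with curcumin, and 44.8, 43.9 and 31.7 TPM with palmitic acid alone. Replicates 1 and 2 of palmitic acid alone were the highest of the 9 libraries, while replicate 3 lay among the curcumin values. The log2 fold change was -0.29 in both comparisons (95% interval -0.61 to 0.04 in both, limma adjusted p of 0.429 and 0.43). PPT1 encodes a thioesterase that removes palmitate from proteins, and PSAP the precursor of the saposins, which help enzymes reach sphingolipids. SMPD1 encodes acid sphingomyelinase and NPC1 the membrane protein that exports cholesterol. The log2 fold changes of these 4 genes lay between -0.09 and 0.20, and their groups overlapped.

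None of the genes for membrane proteins and the proton pump passed the test. LAMP1, a major glycoprotein of the lysosomal membrane, had 181, 192 and 188 TPM with curcumin and CuCl2, 193, 194 and 183 TPM with curcumin, and 187, 190 and 175 TPM with palmitic acid alone. The 3 groups overlapped, and the 95% intervals of the log2 fold change were -0.11 to 0.16 and -0.09 to 0.18, around 0.03 and 0.05. LAMP2, needed for fusion with autophagosomes and for chaperone-mediated autophagy, had 41.6, 41.4 and 40.6 TPM with curcumin and CuCl2, 36.7, 44.2 and 37.0 TPM with curcumin, and 44.5, 41.5 and 27.6 TPM with palmitic acid alone. Replicate 3 of palmitic acid alone was far below the others, and the log2 fold changes of 0.15 and 0.08 became -0.06 and -0.13 without it. CD63, SCARB2, which carries beta-glucocerebrosidase to the lysosome, and the calcium channel gene MCOLN1 had log2 fold changes between -0.05 and 0.17. MCOLN1 had 89.3, 92.7 and 97.2 TPM with curcumin and CuCl2, 90.8, 83.5 and 89.6 TPM with curcumin, and 100.3, 83.6 and 89.2 TPM with palmitic acid alone, and these groups overlapped.

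The 5 members of the V-ATPase, the pump that acidifies the lumen, were ATP6V1A and ATP6V1B2 of the catalytic head, the regulatory subunit gene ATP6V1H, ATP6V0D1, which joins the head to the membrane part, and the accessory subunit gene ATP6AP1. Their log2 fold changes ran between -0.03 and 0.29 for curcumin with CuCl2 and between -0.06 and 0.29 for curcumin. ATP6V1A had 27.7, 28.0 and 27.0 TPM with curcumin and CuCl2, 25.6, 32.4 and 25.3 TPM with curcumin, and 25.4, 24.5 and 18.0 TPM with palmitic acid alone. Curcumin with CuCl2 did not overlap palmitic acid alone, curcumin did, and the limma adjusted p was 0.413 and 0.411.

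**Figure D3:**
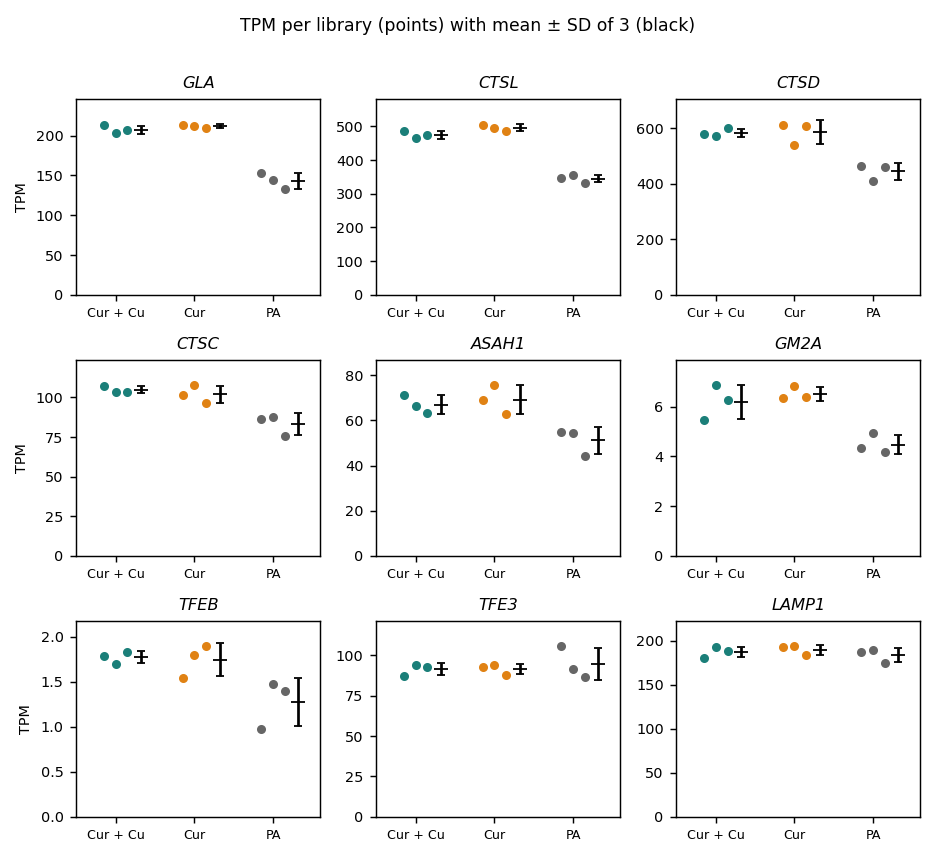
TPM of 9 genes in each library (points, curcumin with CuCl2, curcumin and palmitic acid alone from left to right) with the mean and SD of 3 libraries in black, on axes that start at 0. GLA, CTSL and CTSD are higher in all curcumin libraries; CTSC, ASAH1, GM2A and TFEB show no overlap with palmitic acid alone but did not pass the test, and TFE3 and LAMP1 overlap.

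The regulator TFEB was expressed at a low level. It had 1.78, 1.70 and 1.83 TPM with curcumin and CuCl2, 1.54, 1.80 and 1.89 TPM with curcumin, and 0.97, 1.47 and 1.39 TPM with palmitic acid alone. Every curcumin library was above every library with palmitic acid alone, replicate 1 of which was the lowest. The log2 fold change was 0.29 (SE 0.15, limma adjusted p = 0.452) for curcumin with CuCl2 and 0.27 (SE 0.15, adjusted p = 0.485) for curcumin, a scale that understates changes at this level. TFE3 was far more abundant, with 87.1, 94.2 and 92.7 TPM with curcumin and CuCl2, 93.1, 93.8 and 87.8 TPM with curcumin, and 105.6, 91.8 and 86.5 TPM with palmitic acid alone. Its groups overlapped, and the log2 fold changes of -0.05 and -0.04 had a 95% interval of -0.23 to 0.14 in both comparisons. These are transcript levels, and the location or phosphorylation of either protein was not measured.

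The same family holds 2 more genes. MITF, best known from melanocytes and osteoclasts, had 10.3, 11.5 and 11.3 TPM with curcumin and CuCl2, 9.97, 12.98 and 9.37 TPM with curcumin, and 18.6, 19.2 and 11.4 TPM with palmitic acid alone. Replicate 3 of palmitic acid alone lay among the curcumin libraries and the other 2 well above them. Its log2 fold change was -0.50 (limma adjusted p = 0.27) for curcumin with CuCl2 and -0.54 (adjusted p = 0.219) for curcumin. Without replicate 3 of palmitic acid alone it was -0.73 (limma adjusted p = 0.0263) and -0.77 (adjusted p = 0.0199). That was the only 1 of 9 fits with a library left out in which MITF passed. In the others the limma adjusted p reached 0.59 and 0.514. Over all 18 alternatives it passed in 2 of each comparison, and the log2 fold change weakened to at most -0.38 and -0.41. TFEC, the remaining family member, averaged 0.0578 TPM and was not tested.

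Adding CuCl2 to curcumin was compared with curcumin alone. No member passed the limma test, and neither did any of the 13443 genes, a share of 0%. At an unadjusted p under 0.05 there were 0 members, against 1.60% of all genes. For GLA the log2 fold change of curcumin with CuCl2 over curcumin was -0.03 (95% interval -0.17 to 0.11), for CTSL -0.06 (-0.18 to 0.05) and for CTSD -0.01 (-0.17 to 0.16). The 3 largest differences were those of ARSB at 0.16 (-0.31 to 0.62), ARSA at -0.13 (-0.36 to 0.10) and NAGLU at -0.11 (-0.30 to 0.07). ARSA had 6.58, 6.43 and 6.49 TPM with curcumin and CuCl2, 7.16, 6.90 and 7.55 TPM with curcumin, and 7.59, 6.83 and 7.86 TPM with palmitic acid alone. The libraries with CuCl2 were the lowest 3 of the 9 for ARSA, although its limma adjusted p was 0.555 against palmitic acid alone. CTSB, CTSL and ARSA had all 3 libraries with CuCl2 below all 3 with curcumin, which is 7.89% of the members, and no member was above. Over all genes 6.24% did not overlap, 2.63% higher and 3.61% lower. Over the 38 members the interval of this difference reached at most 0.62 upward and -0.39 downward.

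Across the members, small positive differences from palmitic acid alone were common. The log2 fold change was above 0 for 27 of 38 members with curcumin and CuCl2 and for 25 of 38 with curcumin, against 43.8% and 46.3% of all genes, where the members' shares were 71.1% and 65.8%. For curcumin with CuCl2 over curcumin it was above 0 for 16 of 38, or 42.1%, against 45.6% of all genes. The median log2 fold change of the members was 0.11 in both comparisons, beside -0.03 and -0.02 over all genes. Without any overlap between groups, 12 members were higher and 3 lower with curcumin and CuCl2, where 8.67% of all genes were higher and 10.3% lower, or 19.0% in all. With curcumin 11 were higher and 2 lower, where 8.15% and 8.61% of all genes were, or 16.8% in all. An unadjusted p under 0.05 was found for 10 members in each comparison, or 26.3%, against 13.5% of all genes with curcumin and CuCl2 and 14.0% with curcumin. In each comparison CTSZ and NAGLU were among these 10 with negative log2 fold changes, and the rest were positive.

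**Figure D4:**
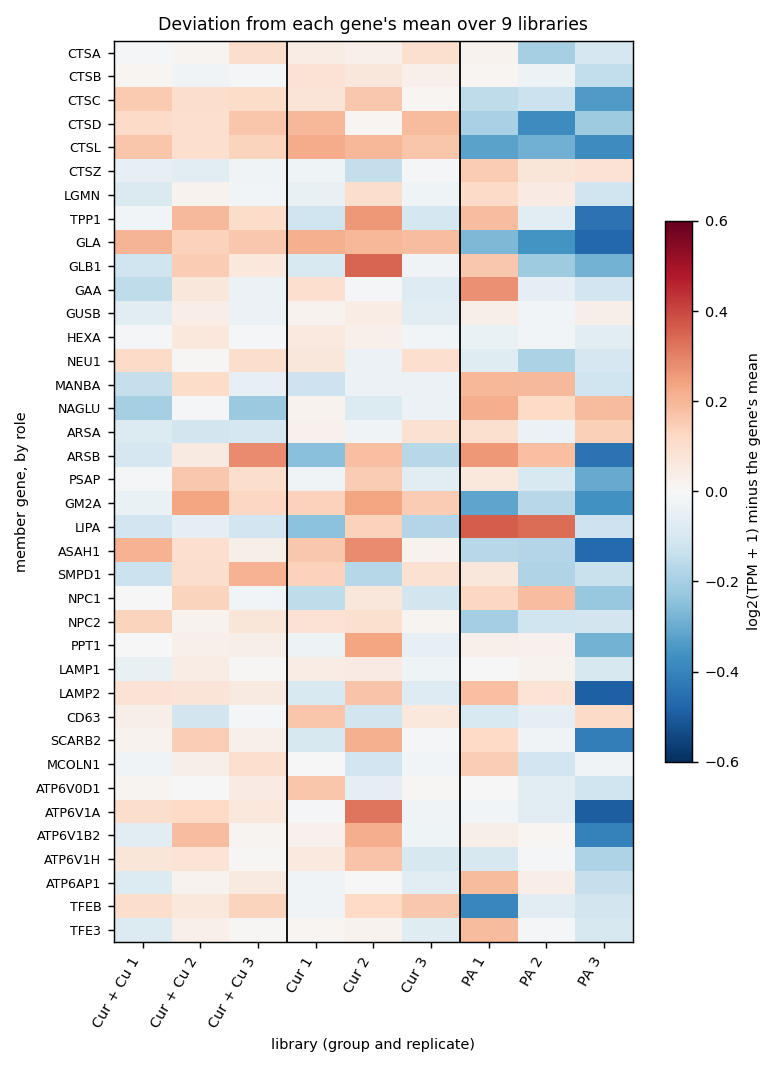
Deviation of log2(TPM + 1) from each gene's mean over 9 libraries (colour) for the 38 genes tested, by role, with 1 column per library and lines between treatments. GLA, CTSL and CTSD are below their mean in all 3 columns of palmitic acid alone, and the last column, replicate 3 of palmitic acid alone, is the lowest for 23 of the 38 genes.

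Medians moved with single libraries, both for the members and for all genes. In each fit given here the members' median stayed the higher. Replicate 3 of palmitic acid alone was the lowest of the 9 for 23 of 38 members, or 60.5%, against 36.1% of all genes. Without it, the median log2 fold change of the members was 0.03 with curcumin and CuCl2 and 0.04 with curcumin, beside -0.10 and -0.09 over all genes. Without replicate 1 of palmitic acid alone the members' median was 0.17 and 0.16, beside 0.02 and 0.03 over all genes, and without replicate 2 of curcumin it was 0.06 for curcumin, beside -0.06. The members' spread was widest with palmitic acid alone: the median coefficient of variation was 3.98% with curcumin and CuCl2, 6.25% with curcumin and 9.14% with palmitic acid alone. It was not computed over all genes, so a wide spread in that group is not shown to be particular to the members. Over all genes, replicate 1 of palmitic acid alone was the highest of the 9 for 29.4% and replicate 3 the lowest for 36.1%.

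The share of TPM from mitochondrial genes also differed between libraries. It was 10.7%, 11.8% and 11.4% with curcumin and CuCl2, 10.4%, 12.4% and 10.9% with curcumin, and 12.98%, 12.5% and 10.1% with palmitic acid alone, replicate 3 being the lowest of the 9. With this share as a covariate, 13 of the 38 members were called in each comparison, a count that takes both directions together. Among them were GLA, CTSL and CTSD, which were higher in both. Of all 13443 genes, 1436 were called with curcumin and CuCl2 and 1505 with curcumin. The summed level of 6 epithelial genes came nearly all from KRT7, KRT8 and KRT18. It was 2637 to 2715 TPM with curcumin and CuCl2, 2505 to 2865 TPM with curcumin and 3314 to 3812 TPM with palmitic acid alone. The part of these shifts in the lysosomal values was not tested.

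A further 113 lysosomal genes outside the set were listed, of which 103 reached a mean of 1 TPM. With curcumin 4 of the 103 rose and none fell, which is 3.88% against 1.96% of all genes, and with curcumin and CuCl2 3 rose and none fell, which is 2.91% against 1.44%. CREG1, a glycoprotein of the lysosomal lumen, rose in both comparisons, at a log2 fold change of 0.51 (limma adjusted p = 0.0142) with CuCl2 and 0.49 (adjusted p = 0.0187) without. It had 105, 101 and 97.9 TPM with curcumin and CuCl2, 93.8, 102 and 103 TPM with curcumin, and 73.7, 74.3 and 64.2 TPM with palmitic acid alone. DNASE2, the lysosomal DNase gene, rose in both as well, at 0.35 (limma adjusted p = 0.045) and 0.47 (adjusted p = 0.0134), with 57.2 to 60.8 TPM, 60.5 to 67.4 TPM and 45.1 to 47.7 TPM in the same order of groups. Both genes therefore stood above palmitic acid alone in every curcumin library.

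SCPEP1, a serine carboxypeptidase gene, rose with curcumin at 0.65 (limma adjusted p = 0.0271) and had 0.56 (adjusted p = 0.0513) with curcumin and CuCl2. ATP6V1E1, a stalk subunit of the V-ATPase, rose with curcumin at 0.24 (limma adjusted p = 0.0449) and had 0.20 (adjusted p = 0.0792) with CuCl2. It had 326 to 338 TPM with curcumin and CuCl2, 339 to 342 TPM with curcumin and 288 to 290 TPM with palmitic acid alone. LAMTOR5, a subunit of the Ragulator complex that anchors mTORC1 to the lysosome, rose with curcumin and CuCl2 at 0.33 (limma adjusted p = 0.0474) and had 0.28 (adjusted p = 0.0744) with curcumin. A call in 1 of the 2 comparisons does not show that they differ, and for none of these genes did curcumin with CuCl2 against curcumin pass the test.

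Calls of these 5 genes were lost when single libraries were left out. Over all 18 alternatives the log2 fold change for curcumin with CuCl2 lay between 0.45 and 0.55 for CREG1, 0.32 and 0.38 for DNASE2, and 0.27 and 0.37 for LAMTOR5. For curcumin it lay between 0.42 and 0.53 for CREG1, 0.44 and 0.52 for DNASE2, 0.52 and 0.74 for SCPEP1, and 0.23 and 0.26 for ATP6V1E1. CREG1 lost its call for curcumin without replicate 2 or 3 of curcumin (limma adjusted p of 0.067 and 0.0958) and for curcumin with CuCl2 without any 1 library of that group (0.0661 to 0.0892). DNASE2 lost it for curcumin without replicate 1 or 3 of curcumin or replicate 2 of palmitic acid alone (limma adjusted p of 0.0545 to 0.0798), and for curcumin with CuCl2 it was kept only without replicate 2 of curcumin or replicate 3 of palmitic acid alone. For curcumin, SCPEP1 was called when replicate 1 or 3 with palmitic acid alone was left out and ATP6V1E1 when replicate 3 was, and neither without any other library. For curcumin with CuCl2, LAMTOR5 was called only without replicate 3 of palmitic acid alone. The highest adjusted p in these fits was 0.209 for DNASE2, 0.109 for SCPEP1, 0.171 for ATP6V1E1 and 0.21 for LAMTOR5. Conversely, SCPEP1 was called with CuCl2 when replicate 1 or 3 with palmitic acid alone was left out (limma adjusted p of 0.0473 and 0.0335) and LAMTOR5 with curcumin without replicate 3 of it (0.0304).

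By role, 3 of 32 further hydrolase and lumen genes (9.38%) rose with curcumin and 2 (6.25%) with curcumin and CuCl2. Among all genes 0.759% were called higher with curcumin and 0.543% with curcumin and CuCl2. None of 25 further membrane genes and none of 11 sorting genes passed the limma test in either comparison. Of 15 further V-ATPase genes 1 (6.67%) rose with curcumin and 0 with curcumin and CuCl2, and of 20 further regulators 0 and 1 (5.00%). Counts of 0 or 1 in lists this short do not tell the roles apart. The median log2 fold change of the 103 genes was 0.04 with curcumin and CuCl2 and 0.06 with curcumin, lower than the 0.11 of the members in both.

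**Figure D5:**
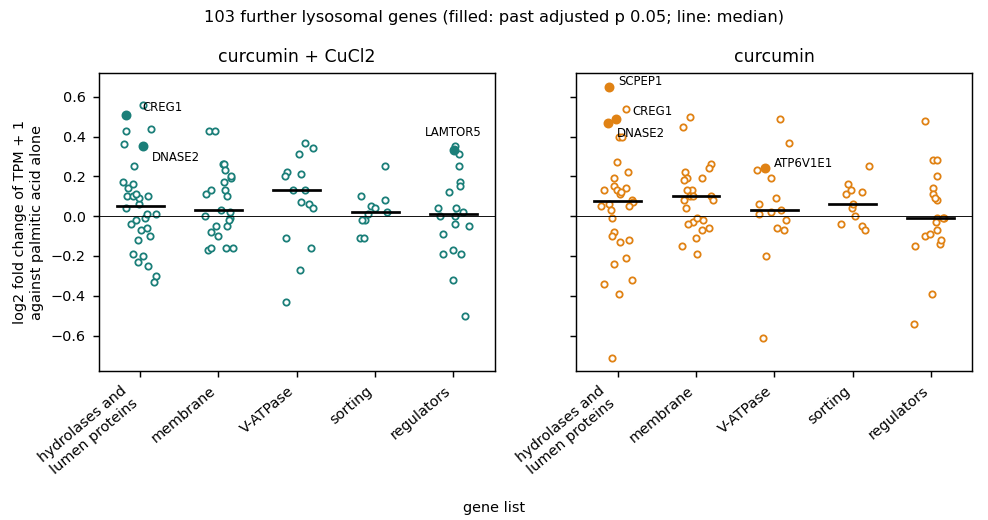
Log2 fold change of TPM + 1 against palmitic acid alone for 103 further lysosomal genes by list, with curcumin and CuCl2 at the left and curcumin at the right; filled, named points are past an adjusted p of 0.05 (limma) and black lines are medians. CREG1 and DNASE2 are filled in both panels, SCPEP1 and ATP6V1E1 with curcumin, and LAMTOR5 with curcumin and CuCl2.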

How the data were processed

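The authors deposited TPM values, a length-scaled unit of transcript abundance, for 62703 genes in 9 libraries. Extraction used TRIzol and library preparation an Illumina stranded mRNA kit, per the labels' protocols. The submitters' processing notes name HISAT2 2.1.0, RSEM 1.3.3 and GRCh38.p13, without their roles. The annotation release and the strand setting are not given in the sources used here. The depth per library is unknown, since TPM does not retain it. Columns summed to 999999 to 1000001.

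Columns were assigned to samples by name, and groups came from the sample titles. The labels do not state separate cultures, so p-values reflect only how these libraries vary, which could be technical. Values were analysed as log2(TPM + 1), which understates the change of low genes. The 13443 genes that averaged at least 1 TPM held 99.7% of the TPM. All 9 libraries entered 1 model per gene in limma 3.58.1 (R 4.3.3) with a variance trend. Each of 3 group differences was tested two-sided, with Benjamini-Hochberg adjustment over all 13443 genes. The script was tested on simulated data whose planted changes were larger than those of GLA, CTSL and CTSD. That test does not show how often changes of their size are called.

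The members, the further lysosomal genes and the marker lists were chosen with earlier results of these data known. Full values are given by rule for members past the threshold, TFEB, TFE3, LAMP1, LAMP2 and the 3 members with the largest fold change in each comparison. Further genes are named when past the threshold, plus MITF and TFEC. Other members are given by level or fold change. Per-library values of CTSC, CTSH, ASAH1, LIPA, MCOLN1 and ATP6V1A were added after they had been seen. Gene positions come from GENCODE 29 on GRCh38, and promoters from RefSeq on GRCh38.p14. The 18 alternatives were 2 other pseudocounts, 2 other filters, median-of-ratios scaling, a replicate block, fits of the 2 groups compared, no variance trend, mitochondrial share as a covariate, and each library left out. Figures were drawn with matplotlib 3.10.9.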

Additional observations from a re-analysis of the deposited data

How the results depend on the processing

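GLA and CTSL passed the limma test under all 18 alternatives in both comparisons with palmitic acid alone, and CTSD in 7 for curcumin with CuCl2 and 8 for curcumin. Over all alternatives the CTSD adjusted p ran from 0.00834 to 0.167 and from 0.008 to 0.155, and it missed the threshold without a filter, in fits of the 2 groups compared, without a variance trend and with median-of-ratios scaling (0.116 and 0.113). With that scaling ASAH1 and CTSC were called in both comparisons and GM2A with curcumin, which gave 4 and 5 members (10.5% and 13.2% of those tested), beside 254 and 312 of 13443 genes (1.89% and 2.32%). With the mitochondrial share as a covariate 13 of the 38 members were called in each, and 1436 and 1505 of the 13443 genes. Of those genes called, 53% and 57.3% were higher, against 37.6% and 38.6% in the main fit. Leaving out 1 library gave 2 to 3 members in each of these comparisons and 0 between the curcumin groups. Counts over all genes were 114 and 104 without a filter and 65 and 45 in fits of the 2 groups compared, and 130 for curcumin without a variance trend. They ranged from 44 to 555 for curcumin with CuCl2 and 54 to 634 for curcumin with 1 library left out, the highest without replicate 3 of palmitic acid alone. Between the curcumin groups, counts over all genes were 1 at a pseudocount of 5, 3 without a filter, 3 in the fit of the 2 groups and 0 to 4 with 1 library left out. Among the genes named, directions turned for small differences that had not passed the test. ARSB for curcumin was 0.07 with the covariate. CTSD between the curcumin groups was 0.00 with median-of-ratios scaling. With 1 library left out, log2 fold changes for curcumin with CuCl2 ranged from -0.14 to 0.21 for ARSB, -0.01 to 0.05 for LAMP1, -0.06 to 0.28 for LAMP2 and -0.11 to 0.03 for TFE3. For curcumin they ranged from -0.30 to 0.05 for ARSB, -0.13 to 0.20 for LAMP2 and -0.10 to 0.04 for TFE3, and between the curcumin groups from -0.07 to 0.03 for CTSD. The cause was not tested. Replicate numbers are shared between groups in the titles, but deviations of same-numbered libraries correlated at -0.269 to 0.246 over 9 pairs, and others at -0.382 to 0.262 over 18, so the numbers were not taken as pairs. With a replicate block 3 members were called for curcumin with CuCl2, 4 for curcumin, where ASAH1 was added, and 0 between the curcumin groups, with 147, 177 and 0 of all genes. Depth is unknown, so no counting error can be given for genes near the filter such as TFEB.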
